A study of Mus musculus with 8 samples.

Results

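The effect of dehydroepiandrosterone (DHEA) on the LPS-treated mouse testis was examined in 4 of the 8 RNA-seq libraries of the study, the 2 of the LPS+DHEA group and the 2 of the LPS group, over all expressed genes. Groups were taken from the titles. The mice were WT males. Animals of the LPS+DHEA group received an intraperitoneal injection of lipopolysaccharide (LPS), a bacterial cell wall component, and 6 h later an injection of DHEA. Animals of the LPS group received LPS alone. The other 4 libraries were LPS+DHEA+Nb, in which Nb23-bi was given together with DHEA after LPS, and CTRL, which received PBS. They entered the fit, and their values are given beside those of some genes only. Nb23-bi is not described in the labels. The labels state no strain, age, dose or collection time, and nothing in them says that the paired libraries of a group came from different animals. Each error and p therefore covers the variation among libraries only, which may be technical.

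DHEA is a steroid of the adrenal gland and gonad. The 3 beta-hydroxysteroid dehydrogenases and 17 beta-hydroxysteroid dehydrogenases convert it to androgens, a step that testicular Leydig cells carry out. LPS is sensed by innate immune receptors and in tissues elicits cytokines, acute phase proteins and interferon-stimulated genes. In whole testis, most RNA comes from germ cells, and for bulk samples of this kind fewer cells of a type and less RNA per cell cannot be told apart.

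The libraries held 61.3 to 64.5 M counts each, with 30142 to 30626 genes detected, and 26414 genes were tested. The germ cell transcript Tnp1, which encodes a spermatid chromatin protein, was abundant at 1712 and 1846 CPM in the LPS+DHEA libraries and 1578 and 1675 CPM in the LPS libraries. CPM is the count of a gene scaled to the TMM-adjusted library total. The extraction protocol speaks of islets, while the labels name testis. The islet hormone genes Ins1, Sst, Ppy and Iapp had 0 counts in every library, and the highest counts of Ins2 and Gcg were 10 and 4. Correlations of log2 CPM were 0.9698 to 0.9713 between LPS+DHEA and LPS libraries, against 0.9711 within LPS+DHEA and 0.97 within LPS, so these ranges overlapped.

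Of 26414 genes, 5 passed an adjusted p under 0.05 in LPS+DHEA versus LPS (0.0189% of those tested, edgeR quasi-likelihood test with Benjamini-Hochberg adjustment). Nupr1l and Arrb1 were higher in LPS+DHEA (0.00757%), and Scd2, Myo5a and Apc were lower (0.0114%). Changes ranged from 2.1-fold to 3.35-fold. At an unadjusted p under 0.05 there were 927 genes. With any 1 of the 8 libraries left out, 10 to 24 genes were called, and DESeq2 called 35 on all 8. The same fit called 78 genes in LPS versus CTRL (68 higher and 10 lower, or 0.295% of those tested, 0.257% higher and 0.0379% lower) and 40 in LPS+DHEA versus CTRL (36 higher and 4 lower, or 0.151%, 0.136% higher and 0.0151% lower). These comparisons share libraries with LPS+DHEA versus LPS and are given side by side. Levels in LPS+DHEA+Nb are given as values for some genes, and their difference from LPS+DHEA was not tested.

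Scd2 encodes a stearoyl-CoA desaturase, which places a double bond into saturated fatty acids, and it lies on GRCm38 chr19:44293674-44306864 on the plus strand. It had 49.95 and 48.62 CPM in the LPS+DHEA libraries, against 167.9 and 162.1 CPM in the LPS libraries. The groups did not overlap. The level was 3.35-fold lower with DHEA (log2 fold change -1.74, SE 0.09, 95% interval -1.94 to -1.55, edgeR adjusted p = 2.17e-05). Scd2 was at 46.06 and 47.25 CPM in LPS+DHEA+Nb and 55.74 and 47.83 CPM in CTRL, so the LPS libraries alone were high. LPS versus CTRL gave a log2 fold change of 1.67 (edgeR adjusted p = 1.64e-05). LPS+DHEA versus CTRL gave -0.07, with an interval of -0.26 to 0.12.

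Nupr1l encodes a small nuclear protein related to the stress-induced regulator Nupr1, and it lies on chr5:129908540-129913789 on the plus strand. It had 175.6 and 174.8 CPM in the LPS+DHEA libraries, against 63.61 and 55.24 CPM in the LPS libraries. The level was 2.95-fold higher with DHEA (log2 fold change 1.56, SE 0.09, 95% interval 1.37 to 1.75, edgeR adjusted p = 2.78e-05). It had 195.1 and 175.4 CPM in LPS+DHEA+Nb and 170.7 and 181.6 CPM in CTRL. Only the LPS libraries stood apart, and they were low. LPS versus CTRL gave a log2 fold change of -1.57 (edgeR adjusted p = 1.77e-05), and LPS+DHEA versus CTRL gave -0.01, with an interval of -0.19 to 0.18.

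Arrb1 encodes beta-arrestin 1, which binds activated G protein-coupled receptors and ends their signal to the G protein, and it lies on chr7:99535466-99606771 on the plus strand. It had 23.2 and 26.07 CPM in the LPS+DHEA libraries, against 11.15 and 8.525 CPM in the LPS libraries. It was 2.5-fold higher with DHEA (log2 fold change 1.32, SE 0.15, 95% interval 1.00 to 1.65, edgeR adjusted p = 0.0153). CTRL had 17.88 and 18.52 CPM, which lay between the groups, and LPS+DHEA+Nb had 22.88 and 26.62 CPM, the level of LPS+DHEA. The log2 fold change was -0.89 in LPS versus CTRL (edgeR adjusted p = 0.0391) and 0.44 in LPS+DHEA versus CTRL (edgeR adjusted p = 0.608). Without the library LPS+DHEA 2 the call was lost (edgeR adjusted p = 0.0544, the highest over 18 alternatives).

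Myo5a encodes myosin Va, an actin motor that carries vesicles and organelles, and it lies on chr9:75071015-75223688 on the plus strand. It had 12.17 and 11.45 CPM in the LPS+DHEA libraries, against 24.73 and 24.77 CPM in the LPS libraries. It was 2.1-fold lower with DHEA (log2 fold change -1.07, SE 0.12, 95% interval -1.32 to -0.81, edgeR adjusted p = 0.0153). CTRL was near LPS+DHEA, at 12.83 and 14.18 CPM. LPS+DHEA+Nb, at 20.06 and 21.91 CPM, was closer to LPS than to LPS+DHEA. LPS versus CTRL gave a log2 fold change of 0.87 (edgeR adjusted p = 0.00967) and LPS+DHEA versus CTRL gave -0.19. The call was lost without either LPS+DHEA library (edgeR adjusted p up to 0.0599).

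Apc encodes the scaffold of the complex that marks beta-catenin for destruction, and it lies on chr18:34220924-34322552 on the plus strand. It had 8.888 and 11.47 CPM in the LPS+DHEA libraries, against 26.4 and 23.75 CPM in the LPS libraries. It was 2.46-fold lower with DHEA (log2 fold change -1.30, SE 0.16, 95% interval -1.65 to -0.96, edgeR adjusted p = 0.0275). CTRL had 8.166 and 6.471 CPM, below the LPS+DHEA libraries. LPS+DHEA+Nb had 24.88 and 23.85 CPM, the level of LPS. LPS versus CTRL gave a log2 fold change of 1.78 (edgeR adjusted p = 0.000737), and LPS+DHEA versus CTRL gave 0.48 (edgeR adjusted p = 0.611). Among the fits that left out 1 library, the call was lost without LPS 1 and without LPS+DHEA 1 (edgeR adjusted p up to 0.101).

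**Figure D1:**
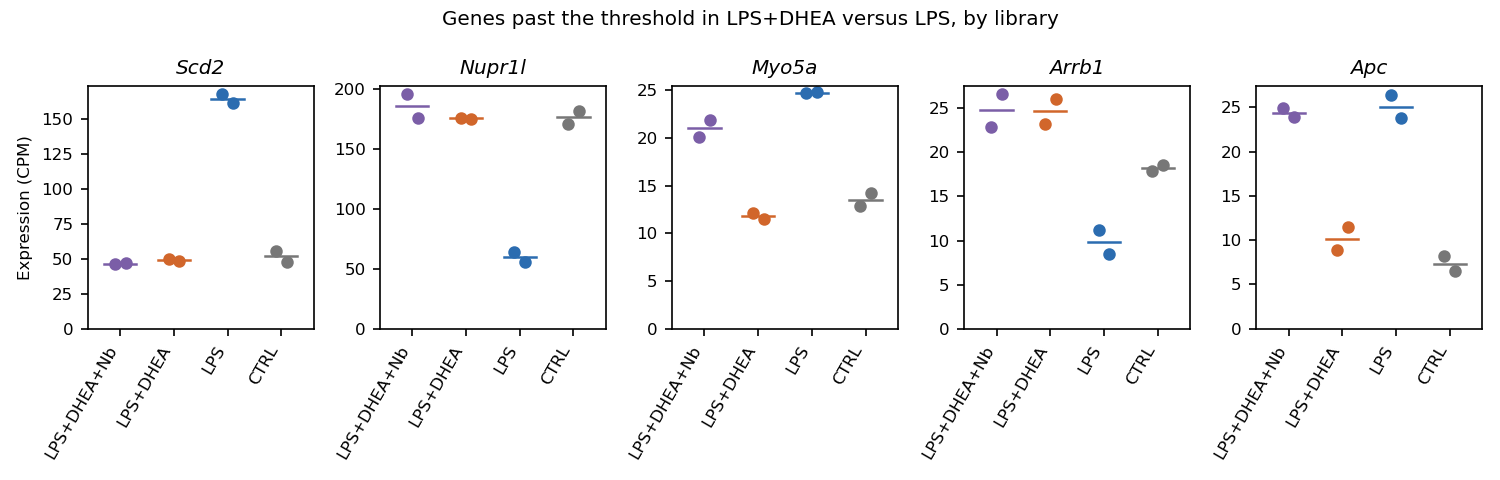
Expression in CPM (vertical axes, starting at 0) of the 5 genes past the threshold in LPS+DHEA versus LPS, in each library (points) with the group mean (line), n = 2 per group. Scd2 and Nupr1l in LPS stand apart from the other groups, and Apc in LPS+DHEA+Nb (24.88 and 23.85 CPM) lies at the LPS level.

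None of Nupr1l, Arrb1, Apc and Myo5a shares exon bases with another annotated gene, and Scd2 shares them with Mir5114 alone, which had 1 count in each library. The upstream sequences of the called genes in the RefSeq promoter table for GRCm38.p6 are shown because these genes carry the comparison. Promoters on the chromosome of Apc were left out of the look-up, so Apc could not match. In all, 2 of the 5 called genes matched. Each is given as the 250 bases before the start in RefSeq on the plus strand, from chr5:129908290-129908539 and chr9:75070956-75071205. The RefSeq start of Nupr1l is the GENCODE start given above. That of Myo5a lies downstream of the GENCODE start, so most of its window is inside the gene as GENCODE annotates it, and its distances are counted from the RefSeq start. Capitals mark matches to the motifs searched.
Nupr1l: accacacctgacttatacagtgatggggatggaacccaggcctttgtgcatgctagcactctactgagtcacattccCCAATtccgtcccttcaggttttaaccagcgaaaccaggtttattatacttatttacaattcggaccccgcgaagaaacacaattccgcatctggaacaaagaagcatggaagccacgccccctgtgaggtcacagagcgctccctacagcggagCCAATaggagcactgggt
Myo5a: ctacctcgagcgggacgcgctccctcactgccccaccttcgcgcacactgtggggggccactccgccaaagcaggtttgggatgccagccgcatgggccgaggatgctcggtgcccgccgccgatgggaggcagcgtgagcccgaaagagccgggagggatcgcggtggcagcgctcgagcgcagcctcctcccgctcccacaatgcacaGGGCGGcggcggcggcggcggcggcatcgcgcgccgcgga
The Nupr1l sequence held the CCAAT box (CCAAT) at 173 and 18 bases before the RefSeq start, and 33.8% of 32851 promoters of the same length held that motif. The Myo5a sequence held the GC box (GGGCGG) at 40 bases before the RefSeq start, which 32.7% of promoters held. The GC content was 50.8% for Nupr1l and 74% for Myo5a, where the middle of all promoters ran from 45.2 to 61.2%. Both strands were searched. Neither sequence had a match to the C/EBP-ATF response element (TGATGNAA, in 3.45% of promoters), the short androgen response element (AGAACA, 16.1%), the NF-kB site (0.28%) or the E-box (CACGTG, 6.02%). A match is a description of letters in this window.

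Outside these genes, the LPS+DHEA and LPS libraries differed little. The median log2 fold change over all tested genes was 0.003, with the middle of the genes between -0.149 and 0.158, and 50.7% were positive. Of 18404 genes with at least 1 CPM, 166 (0.902%) differed by more than 2-fold between the group means, 69 higher and 97 lower in LPS+DHEA. Between the libraries LPS+DHEA 1 and LPS+DHEA 2 the same count was 499 (2.71%), and between LPS 1 and LPS 2 it was 510 (2.77%). Means of a pair vary less than single libraries, so these counts are not on the same footing. The precision depended on the level. The median 95% interval reached 1.12-fold either side of the estimate above 100 CPM, 1.2-fold between 10 and 100 CPM, 1.51-fold between 1 and 10 CPM and 3.95-fold under 1 CPM.

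**Figure D2:**
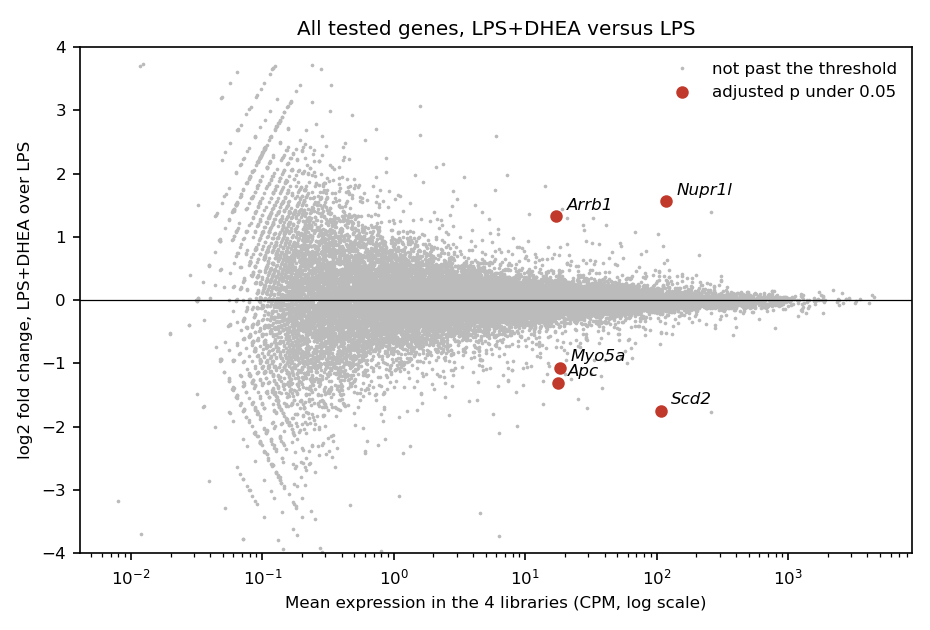
Log2 fold change of LPS+DHEA over LPS (vertical axis) against the mean expression of the 4 libraries in CPM (horizontal log axis), 1 point per tested gene; 309 genes beyond 4 log2 units, 10 of them at 1 CPM or more, lie outside the axes. The 5 genes past the threshold stand away from the cloud, which narrows with the level.

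The genes that ranked next did not pass the threshold and are given as values. Among genes whose symbol is not provisional, whose higher group reached 1 CPM and whose groups did not overlap, Abi3, an adaptor of actin regulation, had the smallest p. It had 2.269 and 2.813 CPM in LPS+DHEA, against 7.368 and 10.3 CPM in LPS (log2 fold change -1.80, SE 0.26, edgeR adjusted p = 0.135), and 2.078 and 2.141 CPM in CTRL. Its exons overlap those of 3 genes on the opposite strand. They share 2913 bases with Zfp652 (log2 fold change -0.08), 1708 with Phospho1 (-0.12) and 234 with Gngt2 (2.23, at 51 and 43 counts in LPS+DHEA and 8 and 12 in LPS). Zfp629, a zinc finger gene, had 14.29 and 11.32 CPM in LPS+DHEA and 37.06 and 38.35 CPM in LPS (log2 fold change -1.56, edgeR adjusted p = 0.921). Igfbp4, which encodes a binding protein of insulin-like growth factors, had 24.6 and 21.65 CPM in LPS+DHEA and 33.88 and 37.79 CPM in LPS (log2 fold change -0.63, edgeR adjusted p = 0.921). In each of these genes both CTRL libraries, like both LPS+DHEA libraries, lay below both LPS libraries.

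Hsp90aa1, an inducible cytosolic chaperone, had 1067 and 1101 CPM in LPS+DHEA and 1292 and 1297 CPM in LPS, a log2 fold change of -0.26. It was the most abundant of the 10 genes on the lower side and had the smallest difference. Vps29, a subunit of the retromer, had a log2 fold change of -0.61, Trank1 of -0.46 and the zinc finger gene Zfp788 of -1.28. Mesd, a chaperone of LDL receptor-related proteins, had 40.78 and 39.92 CPM in LPS+DHEA, against 55.31 and 53 CPM in LPS, while CTRL had 55.25 and 58.33 CPM, so here the LPS+DHEA libraries were the low ones. The nuclear receptor gene Nr2c2 (log2 fold change -0.45) overlaps Mrps25 on the opposite strand, whose log2 fold change was 1.29. Lrch4 (-0.41) shares 3029 exon bases with Gm20605 on the same strand, whose value was 1.19. Gm20605 had 5332 and 1867 counts in LPS+DHEA and 1717 and 1431 in LPS, so the library LPS+DHEA 1 stood high. Reads of overlapping genes may be divided between them. For genes on opposite strands this depends on the strand setting of the counting, which the labels do not state.

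On the higher side, Rbm44, which encodes a protein of the intercellular bridges of germ cells, had 80.77 and 90.72 CPM in LPS+DHEA, against 60.1 and 59.19 CPM in LPS (log2 fold change 0.52, SE 0.09, edgeR adjusted p = 0.243). CTRL had 84.41 and 85.67 CPM. Ptn, which encodes the growth factor pleiotrophin, had 2.097 and 1.815 CPM in LPS+DHEA and 0.6455 and 0.7037 CPM in LPS (log2 fold change 1.53, edgeR adjusted p = 0.735), with 2.653 and 1.797 CPM in CTRL. Both genes had LPS+DHEA values near those of CTRL. The translation regulator Gigyf2 had a log2 fold change of 0.38, the nucleolar gene Knop1 of 0.40, Gpatch4 of 0.78, Plppr2 of 0.59, the CDK2-associated gene Cdk2ap1 of 0.69, the glutathione transferase gene Mgst2 of 0.74 and the polo-like kinase gene Plk5 of 1.95. The histone gene Hist2h2aa2 had 2.15, and as a member of a family of near-identical copies its value is uncertain. All 528 of its exon bases are also shared with Gm20632 on the opposite strand. Gm20632 had 13138 and 12460 counts in LPS+DHEA and 14361 and 12439 in LPS, against 274 and 206, and 77 and 32, for Hist2h2aa2.

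**Figure D3:**
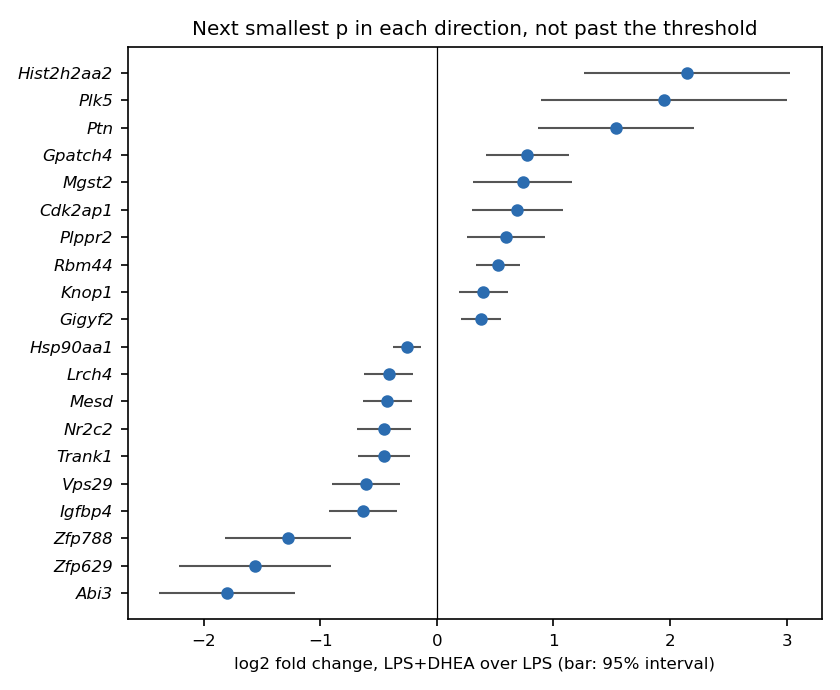
Log2 fold change of LPS+DHEA over LPS (points) with the 95% interval (bars) for the 10 genes with the smallest p in each direction among those not past the threshold. The values run from -1.80 for Abi3 to 2.15 for Hist2h2aa2, and no adjusted p was under 0.135.

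The gene lists around DHEA itself showed no called member. Of 21 tested enzymes of DHEA and androgen conversion, 9 had a positive and 12 a negative log2 fold change (median -0.01). Hsd3b1, the 3 beta-hydroxysteroid dehydrogenase that acts on DHEA, had 28.59 and 25.12 CPM in LPS+DHEA, against 12.2 and 22.87 CPM in LPS and 67.28 and 50.83 CPM in CTRL. The groups LPS+DHEA and LPS did not overlap, and the log2 fold change was 0.62 with an interval of -0.17 to 1.40. Sult1e1, the estrogen sulfotransferase, had 4.303 and 4.072 CPM in LPS+DHEA and 4.629 and 4.958 CPM in LPS, and it was lower in LPS+DHEA than in CTRL (8.358 and 10.93 CPM, log2 fold change -1.20, edgeR adjusted p = 0.0385). Sult1e1 in LPS versus CTRL gave -1.01 (edgeR adjusted p = 0.0645). Adgrg2, an adhesion G protein-coupled receptor gene, had 0.06259 and 0.6215 CPM in LPS+DHEA and 0.4566 and 1.423 CPM in LPS (log2 fold change -1.46, interval -3.41 to 0.50), levels at which a difference of several fold could not be resolved.

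Leydig cell genes for steroid synthesis had no called member. Of 20 tested, 7 were positive and 13 negative, with a median of -0.08. Star, which brings cholesterol into mitochondria, had 14.54 and 25.19 CPM in LPS+DHEA and 34.31 and 29.25 CPM in LPS (log2 fold change -0.68, interval -1.67 to 0.31). Cyp17a1, which makes DHEA in Leydig cells, had 27.73 and 25.33 CPM in LPS+DHEA and 44.19 and 17.4 CPM in LPS, against 105.5 and 155.5 CPM in CTRL. Cyp11a1, which starts steroid synthesis, had the same spread, with 35.58 and 37.96 CPM in LPS+DHEA and 60.63 and 28.76 CPM in LPS. In both genes the LPS libraries lay on either side of the LPS+DHEA libraries. Insl3, which encodes a peptide hormone of these cells, had 502.7 and 484 CPM in LPS+DHEA and 544.5 and 575 CPM in LPS (log2 fold change -0.18, interval -0.33 to -0.03, edgeR adjusted p = 1). Of 18 androgen-regulated testis genes, 7 were positive and 11 negative (median -0.02), and none was called. Of 24 PPAR alpha and peroxisomal targets, 8 were positive and 16 negative (median -0.08), and none was called.

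Each called gene was the lone called member of its list, where 0.0189% of all genes tested were called. The lists were chosen with earlier results of these data known, so a lone call is no result about a pathway. Among 30 genes of fatty acid synthesis and desaturation, Scd2 was called and the other 29 were not, 11 were positive and 19 negative, and the median was -0.04. Scd1, the related desaturase, had 8.856 and 5.446 CPM in LPS+DHEA and 6.943 and 10.25 CPM in LPS. Fasn, the fatty acid synthase gene, had 96.75 and 89.86 CPM in LPS+DHEA and 100.6 and 94.76 CPM in LPS, a log2 fold change of -0.07 with an interval of -0.29 to 0.16. The level of Fasn therefore differed by far less than that of Scd2. Of 23 genes of cholesterol synthesis and uptake, 7 were positive and 16 negative (median -0.06), and none was called.

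Of 28 genes of the integrated stress response, Nupr1l was the lone called member, 19 were positive and 9 negative, with a median of 0.05. Nupr1, its paralog, had 0.9075 and 0.8341 CPM in LPS+DHEA, against 1.307 and 1.983 CPM in LPS (log2 fold change -0.92, interval -1.87 to 0.03), the opposite sign to Nupr1l. Atf4, the transcription factor of this response, had 31.22 and 31.86 CPM in LPS+DHEA and 32.28 and 32.36 CPM in LPS (log2 fold change -0.04, interval -0.24 to 0.17). Its 4 values thus lay within a narrow band.

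Of 31 genes of arrestins, receptor kinases and cAMP signalling, Arrb1 was called and 14 were positive and 17 negative (median -0.01). Arrb2, the other beta-arrestin gene, had 6.165 and 4.694 CPM in LPS+DHEA and 5.117 and 5.422 CPM in LPS (log2 fold change 0.04, interval -0.40 to 0.49). The receptor kinase gene Grk5 had a log2 fold change of -0.35 and the G protein gene Gnai1 of 0.33. Of 22 genes of class V myosin cargo transport, Myo5a was called, and 4 were positive and 18 negative (median -0.06). Myo5b, a related motor, had 109.5 and 113.8 CPM in LPS+DHEA and 124.3 and 117.1 CPM in LPS (log2 fold change -0.11). Of 30 genes of the Wnt destruction complex and its targets, Apc was called, and 13 were positive and 17 negative (median -0.01). Apc2, its homolog, had a log2 fold change of -0.22, Axin1, another scaffold of the complex, of -0.09, and Ctnnb1, which encodes beta-catenin, of -0.18 (97.22 and 88.65 CPM in LPS+DHEA, 108.1 and 102.5 CPM in LPS).

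**Figure D4:**
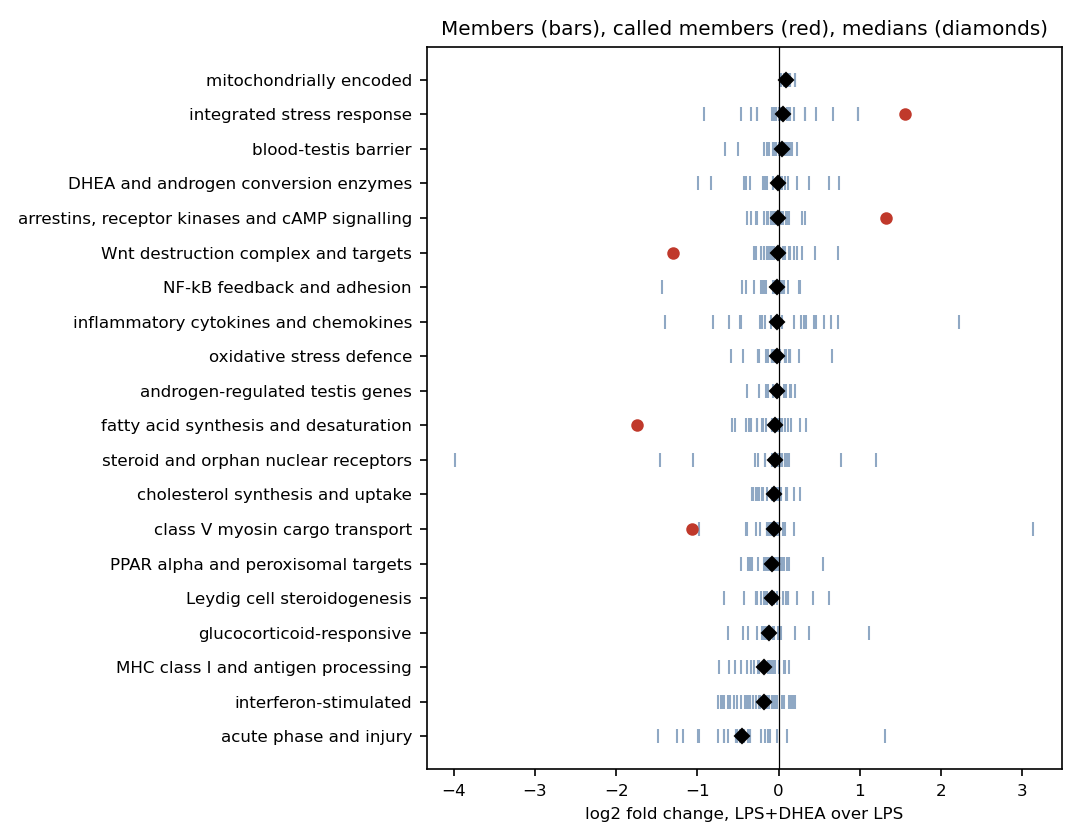
Log2 fold change of LPS+DHEA over LPS for the tested members of 20 gene lists (bars), the called members (red) and the list medians (diamonds). The acute phase list has the lowest median, at -0.45, and each of the 5 called genes is the lone called member of its list. The lists were chosen with earlier results of these data known.

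Acute phase and injury genes were mostly lower in LPS+DHEA than in LPS without any passing the threshold. Of 26 tested, 2 had a positive and 24 a negative log2 fold change, with a median of -0.45 beside 0.003 over all genes. In 18 of the 26 both LPS+DHEA libraries lay below both LPS libraries, against 15.7% of all genes tested, and in 1 they lay above both, against 16.1%. The same list had a median of 0.89 in LPS+DHEA versus CTRL, with 7 members called higher, against 0.136% of all genes tested. In LPS versus CTRL its median was 1.31, with 9 called higher, against 0.257% of all genes tested.

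Lcn2, which encodes lipocalin 2, a protein that withholds iron from bacteria, had 223.9 and 250.1 CPM in LPS+DHEA, against 327 and 313.8 CPM in LPS and 127 and 124.9 CPM in CTRL (log2 fold change -0.43, interval -0.71 to -0.16, edgeR adjusted p = 1). Cp, which encodes the copper carrier ceruloplasmin, had 32.2 and 34.62 CPM in LPS+DHEA, against 43.94 and 45.68 CPM in LPS and 8.214 and 9.034 CPM in CTRL (log2 fold change -0.42, interval -0.67 to -0.18, edgeR adjusted p = 1). Lrg1, a secreted glycoprotein gene, had 17.35 and 16.32 CPM in LPS+DHEA, against 31.5 and 22.17 CPM in LPS and 4.331 and 5.001 CPM in CTRL. In all 3 genes the LPS+DHEA libraries lay between the LPS and the CTRL libraries. The serum amyloid gene Saa3 had 93.95 and 98.1 CPM in LPS+DHEA, against 114.1 and 161.2 CPM in LPS and 0.8949 and 1.485 CPM in CTRL (log2 fold change -0.52, interval -1.12 to 0.08). Other members, chosen after their values were seen, were the protease inhibitor gene Serpina3n at 54.25 and 50.18 CPM in LPS+DHEA and 74.79 and 92.24 CPM in LPS (log2 fold change -0.68), the complement gene C3 at -0.53, the metalloreductase gene Steap4 at -0.98, the cytokine signalling inhibitor gene Socs3 at -0.74, the protease inhibitor gene Timp1 at -0.35 and Saa1 at -0.36. Haptoglobin (Hp) had -1.25, and its LPS libraries stood apart, at 16.19 and 46.01 CPM. Itih4 had the largest positive value of the list, 1.31, at under 0.5 CPM.

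In LPS+DHEA versus CTRL, Saa3 (log2 fold change 6.33, edgeR adjusted p = 0.00392), Cp (1.95, edgeR adjusted p = 0.000135), Lcn2 (0.91, edgeR adjusted p = 0.0331), Lrg1 (1.85, edgeR adjusted p = 0.00253) and Serpina3n (3.17, edgeR adjusted p = 0.0115) were higher in LPS+DHEA. In LPS versus CTRL the values were 6.85, 2.38, 1.35, 2.52 and 3.85 in the same order of genes. These acute phase genes were thus called higher than CTRL in both groups, whereas for Scd2 and Nupr1l the interval of LPS+DHEA versus CTRL included 0.

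**Figure D5:**
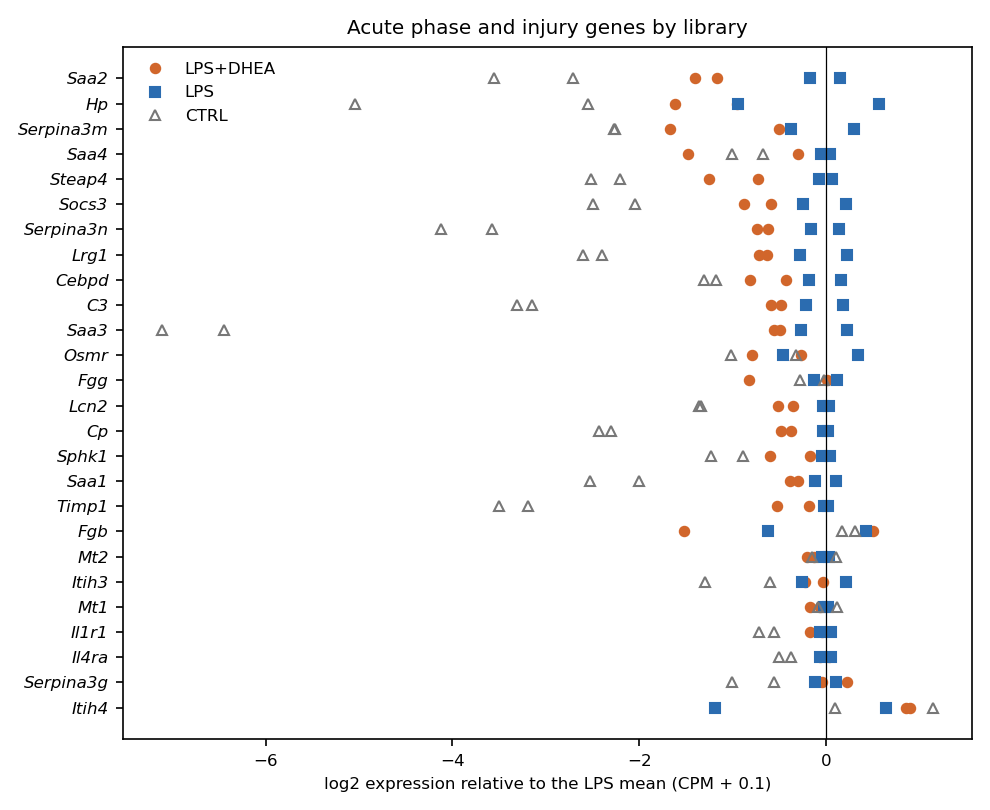
Expression of the 26 tested acute phase and injury genes in each library as log2 (CPM + 0.1) relative to the LPS mean, for LPS+DHEA (circles), LPS (squares) and CTRL (open triangles), 2 points per group. In 18 genes both circles lie left of both squares, and most triangles lie further left.

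Markers of neutrophils, cells that also hold Lcn2, were low throughout apart from Lcn2 itself. Of 12 neutrophil markers, 9 had enough counts to be tested, 3 were positive and 6 negative in LPS+DHEA versus LPS, with a median of -0.43. The median was 5.46 in LPS versus CTRL and 4.87 in LPS+DHEA versus CTRL, with 2 members called higher in each. Both medians are the values of S100a9, which had 0 and 5 counts in CTRL, so their size rests on that floor. Markers near 0 in CTRL could pass the filter only through groups where they were higher, so these medians are no result about neutrophils. Over all genes tested, 0.257% and 0.136% were called higher in these comparisons. The summed level of the 9 markers was 232.3 and 254.4 CPM in LPS+DHEA and 335.8 and 319.2 CPM in LPS, nearly all of it Lcn2. S100a8 had 1.674 and 0.5561 CPM in LPS+DHEA and 1.275 and 0.7837 CPM in LPS, which overlapped, and S100a9 had 1.69 and 0.7196 CPM in LPS+DHEA and 2.44 and 1.2 CPM in LPS, which overlapped too. Both had 0 to 0.07815 CPM in CTRL, and Ly6g, Mmp8 and Camp had too few counts. The part of neutrophils in the acute phase values was not tested.

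Interferon-stimulated genes had a median of -0.18, with 7 of 46 positive and 39 negative and none called. In 19 of the 46 both LPS+DHEA libraries lay below both LPS libraries, and in 0 they lay above, against 15.7% and 16.1% of all genes tested. Their summed level was 303.3 and 277.6 CPM in LPS+DHEA, against 309.8 and 325.4 CPM in LPS, and 187.7 and 286.5 CPM in CTRL, where the libraries differed widely. Gbp7, a guanylate-binding protein gene, had 3.834 and 3.32 CPM in LPS+DHEA and 5.668 and 5.806 CPM in LPS (log2 fold change -0.68). Parp9 had -0.60, Isg15, a ubiquitin-like modifier gene, -0.71, and the signalling genes Irf9 and Stat2 -0.51 and -0.36. The list of MHC class I and peptide processing genes had 4 of 20 positive and 16 negative (median -0.18, none called), led by the immunoproteasome gene Psmb8 (log2 fold change -0.62). H2-D1 had 77.06 and 67.17 CPM in LPS+DHEA, against 80.86 and 90.06 CPM in LPS and 37.75 and 33.21 CPM in CTRL, and it was called in LPS+DHEA versus CTRL (log2 fold change 1.02, edgeR adjusted p = 0.0319).

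Cytokines and chemokines had no shared direction, with 13 of 26 positive and 13 negative (median -0.02) and none called. Cxcl13, a B cell chemokine, had 2.347 and 2.175 CPM in LPS+DHEA, against 3.7 and 3.183 CPM in LPS and 0.09589 and 0.125 CPM in CTRL (log2 fold change -0.61, interval -1.55 to 0.34). Of 28 genes of NF-kB feedback and adhesion, 12 were positive and 16 negative (median -0.02), and none was called. Icam1, a leukocyte adhesion gene, had 6.9 and 6.935 CPM in LPS+DHEA, against 7.919 and 8.173 CPM in LPS and 1.87 and 1.922 CPM in CTRL (log2 fold change -0.22, interval -0.60 to 0.17). Glucocorticoid-responsive genes had 4 of 21 positive and 17 negative (median -0.12), oxidative stress defence genes had 12 of 30 positive and 18 negative (median -0.02), and no member of either was called. Per1, a clock gene that glucocorticoids induce, had the opposite sign, at 178.6 and 141.7 CPM in LPS+DHEA and 113.5 and 132.8 CPM in LPS (log2 fold change 0.38).

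No member of the germ cell and somatic marker lists was called. None of 15 meiotic spermatocyte markers was called, 13 were positive and 2 negative, and their median was 0.11. In 7 of the 15 both LPS+DHEA libraries lay above both LPS libraries, against 16.1% of all genes tested. Sycp2, a component of the synaptonemal complex, had 298.5 and 278 CPM in LPS+DHEA and 257.6 and 264.7 CPM in LPS (log2 fold change 0.14). The medians were 0.01 for 17 spermatid markers, 0.02 for 14 spermatogonial markers, -0.02 for 16 Sertoli cell markers, -0.06 for 12 peritubular and smooth muscle markers and 0.04 for 20 genes of the blood-testis barrier. Lists further from 0 were the 10 adipocyte markers (median -0.32, 2 positive and 8 negative), the 7 Leydig cell markers (-0.18, 3 positive and 4 negative) and the lymphocyte markers (0.23 over 11 of 15, 7 positive and 4 negative). Each of these medians changed sign under some alternative processing. All 13 mitochondrially encoded genes were positive, with a median of 0.09. Their summed level was 10220 and 9320 CPM in LPS+DHEA and 8748 and 9501 CPM in LPS, which overlapped.

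Macrophage markers had 11 of 24 positive and 13 negative (median -0.02). Cd163, a scavenger receptor of resident macrophages, had 0.7041 and 0.8832 CPM in LPS+DHEA, against 2.913 and 1.999 CPM in LPS and 1.502 and 2.407 CPM in CTRL (log2 fold change -1.63, interval -2.55 to -0.71, edgeR adjusted p = 1). Here the LPS+DHEA libraries were below all CTRL and LPS libraries, and those of LPS+DHEA+Nb were lower still, at 0.2046 and 0.4259 CPM. Lyz2, another marker of this list, went the other way. It had 35.22 and 26.56 CPM in LPS+DHEA and 22.01 and 26.18 CPM in LPS (log2 fold change 0.36). Of 18 endothelial markers, 3 were positive and 15 negative (median -0.20), and Cdh5, the junction cadherin of endothelium, had 9.248 and 8.521 CPM in LPS+DHEA and 11.26 and 11.8 CPM in LPS. Red blood cell markers had a median of 0.70 over 7, and Hba-a1 had 22.78 and 8.129 CPM in LPS+DHEA and 7.919 and 4.046 CPM in LPS, so the library LPS+DHEA 1 stood high. Of 13 epididymal markers, 9 had too few counts to be tested.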

How the data were processed

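Testis RNA of 8 libraries was measured, 2 in each of 4 groups. Per the labels' protocols the KAPA Stranded RNA-Seq kit was used, and the submitters' processing notes name HISAT, featureCounts 1.5.0-p3 and GRCm38 without saying which step each served. The authors deposited estimated counts per gene, not scaled for depth, a unit read from the values. They are whole numbers and entered the tests planned for counts without rounding. GENCODE M21 (GRCm38) gave symbols for 55154 and positions for 55240 of 55421 identifiers. Genes were filtered with filterByExpr (minimum count 10, minimum total 15), scaled by TMM (factors 0.985 to 1.015) and fitted in edgeR 4.0.16 (R 4.3.3, limma 3.58.1) with 4 group means over the 8 libraries (glmQLFit, robust, 4 residual degrees of freedom). A gene was called at a Benjamini-Hochberg adjusted p under 0.05. Intervals are 95%. The steps were tested on simulated data.

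Named genes are the called genes, the 10 next by p in each direction, up to 3 per list, and a fixed set, of which 1 gene is left out here. Lists are described without a set test. Members and lists were chosen with earlier results of these data known. Apc2, Axin1, Atf4, Fasn, Myo5b, Sult1e1, Cyp11a1, S100a8, S100a9, Stat2, Irf9, Isg15, Hp and Itih4, like the acute phase genes marked so, were chosen after their values were seen. Library totals were 61.3 to 64.5 M. Alternatives were other scaling, filters, DESeq2 1.42.0, limma-voom, the 2 groups alone, a replicate block, counts divided by 4, a threshold of 0.1 and each library left out.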

Additional observations from a re-analysis of the deposited data

How the results depend on the processing

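Scd2 and Nupr1l were called in LPS+DHEA versus LPS under all 18 alternatives, Arrb1 under 17, Myo5a under 16 and Apc under 15. The count of calls, 5 as reported, was 35 with DESeq2 (5 shared), 20 with only the 2 groups compared (5 shared), 10 with no filter and 10 to 24 with a library left out (11 without CTRL 1, 10 without CTRL 2, 23 without LPS 1, 24 without LPS 2, 13 without LPS+DHEA 1, 15 without LPS+DHEA 2, 17 without LPS+DHEA+Nb 1, 14 without LPS+DHEA+Nb 2), and 5 under the other alternatives. For LPS versus CTRL, 78 as reported, it was 140 with no filter, 283 with DESeq2, 49 with limma-voom, 122 at an adjusted p under 0.1 and 66 to 118 (118 without LPS 1) with a library left out. For LPS+DHEA versus CTRL, 40 as reported, it was 80, 181, 23 and 62 in the same order, 61 with only the 2 groups compared and 27 to 65 with a library left out. With replicate numbers as a replicate block, 5 genes were called in LPS+DHEA versus LPS, of which 4 were shared (Apc was lost), 62 in LPS versus CTRL and 29 in LPS+DHEA versus CTRL. Same-numbered libraries did not deviate together over all tested genes (correlation -0.033 between LPS and LPS+DHEA). With 2 libraries per group, this correlation cannot decide whether samples of the same number share more than that number. The causes were not tested.

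Signs turned for some genes that were not called. Leaving out 1 library at a time gave log2 fold changes of -0.66 to 0.04 for Scd1 (positive at 0.03 without LPS 2 and at 0.04 without LPS+DHEA 2), -0.73 to 0.35 for Cyp11a1 and -0.74 to 0.6 for Cyp17a1 (both positive without LPS 1), -1.34 to 0 for S100a9 (0 without LPS 1), -0.17 to 0.23 for Arrb2 (negative without LPS+DHEA 1, 0 without LPS 1) and -0.89 to 0.7 for S100a8 (negative without LPS+DHEA 1, and at -0.2 without LPS 2). With limma-voom S100a8 was at -0.04. Medians of some lists turned sign too. Over 16 alternatives they ran from -0.415 to 0.248 for adipocyte markers and from -0.215 to 0.232 for Leydig cell markers. The ranges were -0.386 to 0.255 for cytokines and chemokines and -0.891 to 0.069 for neutrophil markers. The medians of acute phase genes (-0.54 to -0.339) and interferon-stimulated genes (-0.471 to -0.124) stayed negative. At the depth of these libraries, differences under about 1.51-fold between 1 and 10 CPM could not be resolved.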

Other observations

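Some genes were at 0 in both libraries of a group and at 20 counts or more in both of the other, and they are given as values, chosen after they were seen. There were 9 such genes at 0 in LPS, of which 2 were at 0 in the other 4 libraries too, and 6 at 0 in LPS+DHEA. Several of them also went from 0 to many counts between the libraries of another group. Gm7903 had 607 and 606 counts in LPS+DHEA and 0 in both LPS libraries, but 715 and 0 in LPS+DHEA+Nb. Gm37389 had 0 in both LPS+DHEA libraries and 651 and 687 counts in LPS, but 0 and 226 in CTRL. Gm10352, on chromosome Y, had 141 and 90 counts in LPS+DHEA and 0 in each of the other 6 libraries, at least 38.6-fold higher than a floor of 3 counts per library in LPS. It belongs to a region of many near-identical copies, between which reads may be divided. Gm43738, on chromosome 3, had 113 and 76 counts in LPS+DHEA and 0 in the other 6, at least 31.6-fold higher by the same floor, and its exons are shared with Rusc1 and Fdps on the same strand. Neither passed the threshold in LPS+DHEA versus LPS (edgeR adjusted p = 0.135 and edgeR adjusted p = 0.243), and each was called under 5 of 18 alternatives. In LPS+DHEA versus CTRL, Gm10352 was called (edgeR adjusted p = 0.0331) and Gm43738 was not (edgeR adjusted p = 0.0577).

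Sp1, which encodes a transcription factor that binds GC boxes, had 11.7 and 16.03 CPM in LPS+DHEA, against 40.4 and 49.79 CPM in LPS, 28.73 and 49.97 CPM in LPS+DHEA+Nb and 49.01 and 50.36 CPM in CTRL. The LPS+DHEA libraries were the lowest of the 8. The log2 fold change against LPS was -1.70 (SE 0.30, 95% interval -2.43 to -0.97, edgeR adjusted p = 0.985), and it was called under 5 of 18 alternatives, with values of -1.95 to -1.50. Sp1 was chosen after its values were seen.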
